A study of Homo sapiens with 6 samples.

Results

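ID1, ID2, ID3, SMAD6, SMAD7, BMP2, BMP4, TGFB1, INHBA and TGFBI are 10 genes of bone morphogenetic protein (BMP) and transforming growth factor beta (TGF-beta) signalling. They were taken by symbol, and all 10 were among the 23368 genes of the table. Total RNA was sequenced from HepG2 cells, a long-established line from a human liver cancer with many hepatocyte traits. All 6 libraries came from cells transduced with a pLKO lentivirus. The shCHROME group has 3 libraries (a, b and c), in which the hairpin was directed at all variants of CHROME, a long noncoding RNA. The EV group has 3 (a, b and c), with a non-targeting hairpin. Both are described as stable expression in the labels, the virus was packaged in HEK293T, an embryonic kidney line, and a single CHROME hairpin was tested. CHROME itself was not analysed here. Whether replicates were separate cultures is not stated, and p-values reflect the spread between libraries, which may be technical.

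Ligands of the TGF-beta family bind pairs of type I and type II receptors on the cell surface. Activated type I receptors phosphorylate SMAD proteins, which enter the nucleus with SMAD4 and act on target genes. BMP ligands signal mainly through SMAD1, SMAD5 and SMAD9, and TGF-beta and activins mainly through SMAD2 and SMAD3. The ID genes are direct BMP targets, TGFBI is a TGF-beta target, and SMAD6 and SMAD7 are induced by the pathway and inhibit it. In liver, BMP signalling from neighbouring cells sets hepcidin, the iron hormone encoded by HAMP, and TGF-beta is a driver of fibrosis.

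ID1 and BMP4 fell in shCHROME, by 1.22-fold and 1.16-fold. None of the 10 genes rose. The 7 others that passed the filter on low values (ID2, ID3, SMAD6, SMAD7, BMP2, TGFB1 and TGFBI) did not pass the test, and INHBA was below the filter. The 2 lower calls among 9 tested members stand beside a background of 6.87% of all 14598 tested genes called lower and 3.64% called higher. With so few members, 2 calls of 9 are few to read against that share. The counts of 2 lower and 0 higher were the same by limma, by edgeR's quasi-likelihood test and by DESeq2 (adjusted p under 0.05), and at an unadjusted p under 0.05 limma gave 6 lower and 0 higher of the 9 members, beside 1972 lower and 1555 higher of the 14598 genes. Of the 9 tested members, 8 had a negative log2 fold change (shCHROME minus EV), against 6976 of 14598 genes, and the median was -0.14 against 0.01 over all genes tested. In the authors' deposited table the same 2 members were called. The log2 fold change there was -0.25 for ID1 (authors' adjusted p = 0.0376) and -0.20 for BMP4 (authors' adjusted p = 0.0255). The mean counts given there were not those of the 6 libraries: 10340 against 10157 for ID1 and 2452 against 2357 for BMP4. The authors' fit may thus rest on other values than those used here, and why the means differ was not tested.

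**Figure D1:**
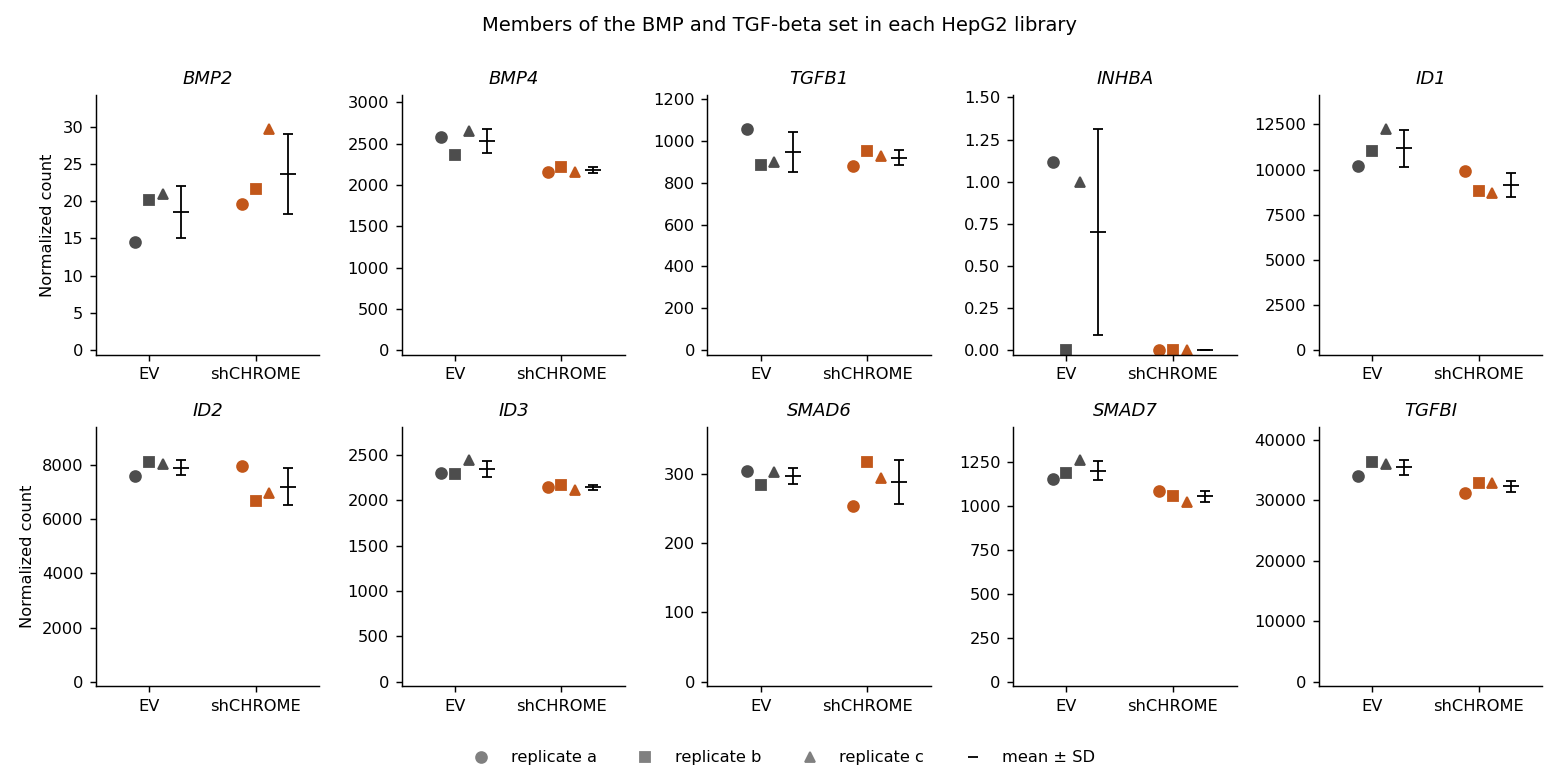
Normalized counts of each of the 10 genes in the 3 EV and 3 shCHROME libraries, 1 panel per gene, with a symbol per library and the group mean ± SD beside it; each vertical axis starts at about 0 and has its own scale. The shCHROME points of ID1, ID3, SMAD7, BMP4 and TGFBI lie below all EV points of the same gene, and those of the other genes overlap with EV.

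The levels of the 10 genes spanned a wide range. Per 1000 bases of merged exons, TGFBI was highest, with 10861 to 12638 normalized counts over the 6 libraries. ID1 followed with 7074 to 9951, ID2 with 3121 to 3784, ID3 with 1689 to 1955 and BMP4 with 1026 to 1260. TGFB1 (317.8 to 382.5), SMAD7 (225.3 to 278.3) and SMAD6 (66 to 82.49) were lower on the same per-length scale, and BMP2 was at 4.025 to 8.265. INHBA was at 0 to 0.169. No 2 neighbours in this order had overlapping ranges over the 6 libraries. BMP4 was thus the most abundant of the 4 member ligands, and ID1 the most abundant of the 3 ID genes. All values that follow are normalized counts of whole genes, not per length.

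Among the ligands, BMP4 (ENSG00000125378, chromosome 14), which patterns mesoderm in the embryo and acts through BMP receptors, had 2582, 2366 and 2652 normalized counts in EV replicates a, b and c. It had 2162, 2221 and 2159 in shCHROME replicates a, b and c. Every shCHROME library was below the lowest EV library, and EV replicate b was the nearest to them. The means were 2533 ± 149 and 2181 ± 34.8 (SD, n = 3 each), a log2 fold change of -0.21 ± 0.063 (SE) with a 95% interval of -0.35 to -0.08 (limma, adjusted p = 0.0356). The call was lost in 7 of 16 alternatives, with adjusted p up to 0.172 without EV replicate c, and the direction was kept in all 16.

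TGFB1 (chromosome 19), the main TGF-beta ligand, had 1059, 883.9 and 900.1 normalized counts in EV and 879.9, 951.2 and 925.8 in shCHROME. EV replicate a stood above the other 5 libraries, which lay within a narrow range, and the groups overlapped. The log2 fold change was -0.04 with a 95% interval of -0.21 to 0.13 (limma, adjusted p = 0.825).

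BMP2 (chromosome 20), a ligand closely related to BMP4, was scarce. Its values were 14.49, 20.11 and 20.91 in EV and 19.61, 21.71 and 29.76 in shCHROME, from 56 reads in all EV libraries and 70 in all shCHROME libraries. The groups overlapped, and the log2 fold change of 0.34 had an interval of -0.34 to 1.01 (limma, adjusted p = 0.577). At this depth a difference of any size within these bounds was not excluded. INHBA (chromosome 7), the subunit of activin A, had 1, 0 and 1 reads in EV and 0 in every shCHROME library, at or under a floor of 3 reads, and no fold is given. Genes at 0 in the table need not be silent.

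The inhibitory SMADs differed in their spread. SMAD7 (chromosome 18), which blocks type I receptors for both branches, had 1156, 1188 and 1262 normalized counts in EV and 1084, 1060 and 1022 in shCHROME. All 3 shCHROME libraries were below all EV libraries, yet the gene missed the threshold, with a log2 fold change of -0.19 and an interval of -0.34 to -0.04 (limma, adjusted p = 0.107), and it was called in 0 of 16 alternatives. SMAD6 (chromosome 15), which acts mainly against BMP signals, had 304.4, 283.4 and 301.7 in EV and 253.1, 316.4 and 293.4 in shCHROME. The shCHROME libraries lay on both sides of EV, and the log2 fold change was -0.05 with an interval of -0.29 to 0.19 (limma, adjusted p = 0.848).

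ID1 (ENSG00000125968, chromosome 20), an inhibitor of basic helix-loop-helix transcription factors and a direct target of BMP-activated SMADs, had 10183, 11049 and 12269 normalized counts in EV. It had 9918, 8801 and 8723 in shCHROME. The groups did not overlap, but shCHROME replicate a lay close to EV replicate a, and in CPM, reads scaled to each library's total, the groups overlapped. The means were 11167 ± 1048 and 9147 ± 668 (SD, n = 3 each), a log2 fold change of -0.29 ± 0.069 (SE) with a 95% interval of -0.43 to -0.14 (limma, adjusted p = 0.0115). The call held in 14 of 16 alternatives. The exceptions were the fits that left out EV replicate c (adjusted p = 0.0837) or shCHROME replicate c (adjusted p = 0.0827).

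The other ID genes encode inhibitors of the same class. ID2 (chromosome 2) had 7586, 8104 and 8022 normalized counts in EV and 7964, 6686 and 6949 in shCHROME. Here shCHROME replicate a lay within the EV range and the other shCHROME libraries below it. The log2 fold change was -0.14, with an interval of -0.27 to -0.003 (limma, adjusted p = 0.195), and without shCHROME replicate a it was -0.21 (limma, adjusted p = 0.0223). A near-identical pseudogene copy of ID2 exists, so its reads may be shared.

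ID3 (chromosome 1) had 2307, 2290 and 2445 in EV and 2147, 2172 and 2113 in shCHROME. The shCHROME libraries were close together and all below EV, also in CPM. Its log2 fold change was -0.13, with an interval of -0.26 to -0.002 (limma, adjusted p = 0.197), and ID3 was called in 0 of 16 alternatives.

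TGFBI (chromosome 5), a secreted matrix protein named for its induction by TGF-beta, had 34095, 36333 and 35930 normalized counts in EV and 31225, 32819 and 32800 in shCHROME. The groups did not overlap, though they did in CPM. The log2 fold change was -0.14 with an interval of -0.25 to -0.02 (limma, adjusted p = 0.134), and the call was made in 0 of 16 alternatives.

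Altogether 5 members (ID1, ID3, SMAD7, BMP4 and TGFBI) had every shCHROME library below every EV library, and 0 had them above. Over all genes tested 28% had groups that did not overlap, 15% with shCHROME entirely below EV and 13% entirely above. In CPM, 3 of the 9 tested members (ID3, SMAD7 and BMP4) had shCHROME entirely below EV, beside 10.5% of all genes tested. The differences were small, with no log2 fold change of a called member beyond -0.29.

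**Figure D2:**
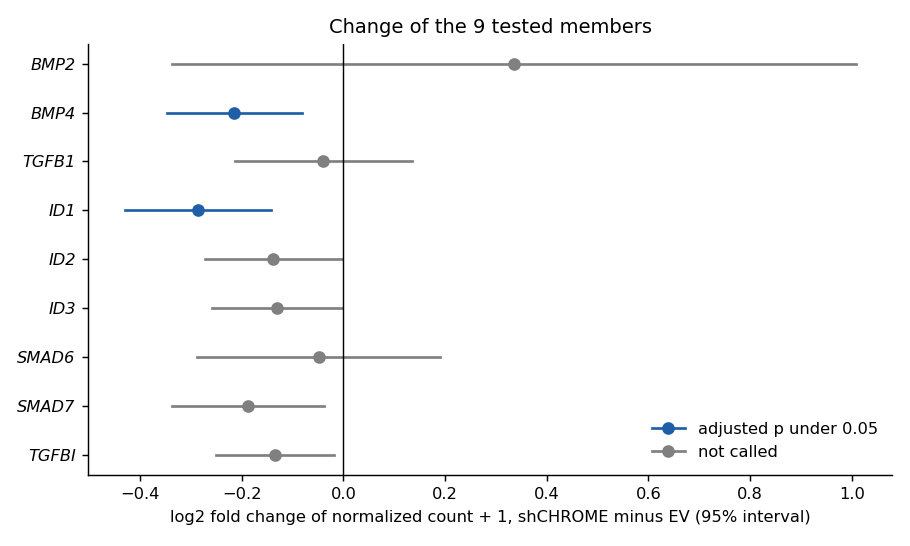
Log2 fold change (shCHROME minus EV) of the 9 tested genes with 95% intervals from limma, and a line at no difference; blue marks genes that passed the test at adjusted p under 0.05, grey those that did not. The intervals of ID1 and BMP4 lie below 0, as do those of TGFBI, SMAD7, ID2 and ID3 without passing after adjustment, and those of SMAD6, TGFB1 and BMP2 include 0.

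RefSeq promoter sequences (GRCh38.p14) were found for 9 members, and BMP2 had no entry. In the 250 bases before the start, on both strands, 4 motifs known from SMAD binding were searched: GTCTAGAC, the palindromic SMAD box, CAGAC, its short form (not contained in it), and GGCGCC and GGAGCC, GC-rich elements known from BMP target genes. The promoters of the 2 called members are shown, with SMAD6, which was added after the matches were seen because it was the only member window with the palindrome. Capitals mark the motifs on either strand, and each sequence is written 5′ to 3′ along its gene.
ID1 (chr20:31605039-31605288, plus strand): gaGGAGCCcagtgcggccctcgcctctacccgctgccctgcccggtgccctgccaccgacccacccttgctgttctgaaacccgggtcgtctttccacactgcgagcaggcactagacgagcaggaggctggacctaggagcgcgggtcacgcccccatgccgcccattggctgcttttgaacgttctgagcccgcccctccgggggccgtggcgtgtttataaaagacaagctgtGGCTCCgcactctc
BMP4 (chr14:53955051-53955300, minus strand, the most upstream of its 3 start windows): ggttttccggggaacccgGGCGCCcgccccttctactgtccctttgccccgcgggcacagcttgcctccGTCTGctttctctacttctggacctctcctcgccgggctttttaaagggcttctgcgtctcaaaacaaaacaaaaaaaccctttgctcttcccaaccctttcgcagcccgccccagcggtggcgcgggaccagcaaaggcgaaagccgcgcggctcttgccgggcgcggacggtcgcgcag
SMAD6 (chr15:66701986-66702235, plus strand): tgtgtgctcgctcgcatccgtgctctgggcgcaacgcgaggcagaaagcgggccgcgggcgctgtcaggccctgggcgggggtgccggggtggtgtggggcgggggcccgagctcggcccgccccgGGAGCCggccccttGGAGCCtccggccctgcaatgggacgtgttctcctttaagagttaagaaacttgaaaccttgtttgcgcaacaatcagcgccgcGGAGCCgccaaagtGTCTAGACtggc

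The ID1 window held GGAGCC, once on each strand, at positions -248 and -14, where -1 is the last base before the start. The BMP4 window held GGCGCC at -232 and CAGAC, on the opposite strand, at -181. The SMAD6 window, of a gene that did not pass the test, held GTCTAGAC at -12 and GGAGCC at 3 positions. Of 35116 RefSeq windows of the same length, 0.182% held GTCTAGAC, 38% CAGAC, 16.4% GGCGCC and 30.6% GGAGCC. Another BMP4 window held CAGAC and GGAGCC. The SMAD7 windows held CAGAC and GGAGCC, that of ID3 held both too, that of TGFB1 GGAGCC and that of TGFBI GGCGCC. The windows of ID2 and INHBA held none of the 4. These matches describe letters in a window, and the called and uncalled members were not set apart by any of the motifs.

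Other genes of the pathway were taken from 13 lists of 122 genes. Of these, 121 were in the table and 83 were tested, with 4 higher and 8 lower calls and a median log2 fold change of -0.004. Over all 14598 tested genes, 3.64% were called higher and 6.87% lower, with a median of 0.009. The lists were chosen with earlier results of these data known, so the counts only describe. The other TGF-beta, activin and nodal ligands gave 0 calls among 6 tested (limma, and edgeR and DESeq2 likewise, with 0 at an unadjusted p under 0.05). INHBE, a hepatocyte activin subunit, was their most abundant member, with a log2 fold change of -0.04 (interval -0.16 to 0.09), followed by GDF11 at 0.09 (-0.29 to 0.47). TGFB2, NODAL, LEFTY1, LEFTY2 and MSTN were below the filter.

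Of the other BMP and GDF ligands 8 were tested, and GDF7, a BMP-class ligand, rose. It had 390.2, 392.1 and 411.2 normalized counts in EV and 469.8, 545.9 and 474.1 in shCHROME, all shCHROME libraries above all EV libraries. The log2 fold change was 0.32 (limma, adjusted p = 0.042), and the call was lost in 7 of 16 alternatives, with adjusted p up to 0.138 without shCHROME replicate b. GDF15, a stress-induced hormone, had a log2 fold change of -0.004 (-0.16 to 0.15). BMP6, the main ligand of hepcidin control in liver, was at -0.003 (-0.24 to 0.24). The 9 others, among them BMP5, BMP10 and AMH, were below the filter.

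The receptors, co-receptors, receptor-regulated SMADs and SMAD4 gave 0 calls among 18 tested genes by limma, edgeR and DESeq2, with 1 lower at an unadjusted p under 0.05. Among type I receptors, log2 fold changes ran from -0.07 to 0.14, with TGFBR1 at -0.07 (-0.21 to 0.07) and the BMP receptor BMPR1A at -0.04 (-0.18 to 0.11). Type II receptors ran from -0.05 to 0.10, with TGFBR2 at -0.002 (-0.12 to 0.12) and the activin receptor ACVR2B at 0.10 (-0.02 to 0.23). The co-receptors TGFBR3 and RGMB were at -0.04 (-0.23 to 0.14) and 0.06 (-0.13 to 0.25). SMAD5, of the BMP branch, was at -0.03 (-0.15 to 0.09) and SMAD2, of the TGF-beta branch, at 0.11 (-0.01 to 0.23). SMAD4, the shared partner, named here after its value was seen, was the gene at an unadjusted p under 0.05, with a log2 fold change of -0.14 (limma, adjusted p = 0.137).

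Upstream of the receptors, GREM1, a secreted BMP antagonist, fell. Its values were 731.4, 751.4 and 844.4 in EV and 637.9, 593.4 and 644.2 in shCHROME, with no overlap, and the log2 fold change was -0.31 (limma, adjusted p = 0.0255, lost in 4 of 16 alternatives with adjusted p up to 0.147 without EV replicate c). The other tested antagonists did not pass: CHRD was at 0.11 (-0.06 to 0.27) and FST, which binds activins, at -0.02 (-0.24 to 0.20).

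The genes of TGF-beta latency and activation gave 2 lower and 1 higher call among 8 tested. LTBP1, which tethers latent TGF-beta to the matrix, had 856.3, 890.3 and 873.2 in EV and 468.9, 541.8 and 523 in shCHROME, far below EV in each library. It fell 1.71-fold (log2 fold change -0.77, limma, adjusted p = 8.96e-06). ITGAV encodes a chain of integrins that release TGF-beta from its latent form. Of the other integrin genes in this list, ITGB6 was at 0 in every library. ITGB8 was scarce, with means of 18.23 in EV and 22.46 in shCHROME, and was not called. ITGAV had 3880, 3988 and 3865 in EV and 3418, 2932 and 3277 in shCHROME and fell 1.22-fold (limma, adjusted p = 0.00653).

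FURIN, the protease that cleaves the precursors of TGF-beta and BMP ligands, went the other way. It had 2421, 1727 and 1874 in EV and 3114, 2983 and 2763 in shCHROME and rose 1.48-fold (limma, adjusted p = 0.000599). EV replicate a was the highest EV library and still below every shCHROME library. The calls of LTBP1, ITGAV and FURIN held in all 16 alternatives. THBS1, an activator of latent TGF-beta, was at a log2 fold change of -0.14 (-0.26 to -0.03, limma, adjusted p = 0.112), and LTBP3 at -0.04 (-0.22 to 0.14).

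Of 14 tested intracellular regulators 1 was called. FKBP1A, a protein that binds type I receptors and holds them inactive, rose 1.17-fold, from 3847, 3633 and 4004 in EV to 4363, 4589 and 4462 in shCHROME (limma, adjusted p = 0.0179). The call was lost in 3 of 16 alternatives, with adjusted p up to 0.0932 without EV replicate b, and the gene has processed copies in the genome that may share its reads. TGIF2, a repressor of SMAD targets, was at 0.03 (-0.09 to 0.15) and STRAP at -0.13 (-0.24 to -0.01, limma, adjusted p = 0.165).

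**Figure D3:**
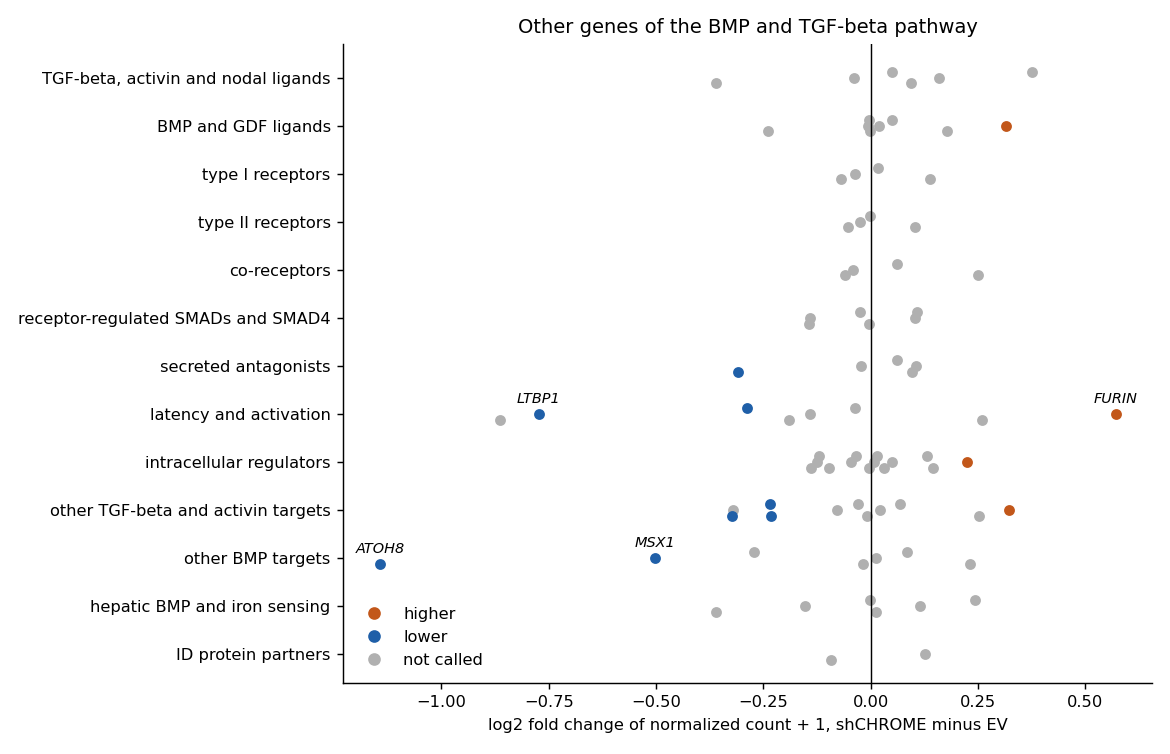
Log2 fold change (shCHROME minus EV) of each tested gene in the 13 pathway lists, 1 row per list, with genes at adjusted p under 0.05 in limma in orange (higher) or blue (lower) and the others in grey. ATOH8, LTBP1 and MSX1 lie farthest to the left among called genes and FURIN farthest to the right, and every receptor and SMAD point is grey.

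The largest change among the called pathway genes was in a BMP target outside the 10 members. ATOH8, a transcription factor gene induced by BMP signals in liver, had 741.4, 563.1 and 710.9 in EV and 275.5, 339.1 and 293.4 in shCHROME. Every shCHROME library was well below the lowest EV library. The means were 671.8 ± 95.4 and 302.7 ± 32.8 (SD, n = 3 each), a 2.21-fold fall (log2 fold change -1.14 ± 0.114, limma, adjusted p = 4.11e-06).

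MSX1, a homeobox gene and BMP target, had 1009, 1000 and 1053 in EV and 708.9, 719.6 and 730.3 in shCHROME. The libraries of each group were close together, and MSX1 fell 1.42-fold (limma, adjusted p = 0.000237). ATOH8 and MSX1 were called in all 16 alternatives. They were the 2 calls among 7 tested BMP targets, and the list does not move as one: HAMP was at a log2 fold change of 0.01 (-0.17 to 0.20), with 1292, 1562 and 1724 in EV and 1557, 1570 and 1462 in shCHROME, and GATA2 at 0.09 (-0.10 to 0.27). Of the 6 tested genes of hepatic iron sensing 0 were called by limma, edgeR or DESeq2, with 1 higher at an unadjusted p under 0.05, and TFR2, a transferrin sensor, was at 0.11 (-0.01 to 0.24).

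Among 11 tested TGF-beta and activin targets, CDKN1A, SPHK1 and FN1 fell. CDKN1A, a cell cycle inhibitor that p53 also induces, had 4163, 4373 and 3830 in EV and 3478, 3203 and 3201 in shCHROME and fell 1.25-fold (limma, adjusted p = 0.00289).

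SPHK1, a sphingosine kinase, had 6105, 5715 and 5632 in EV and 5175, 5092 and 4582 in shCHROME and fell 1.18-fold (limma, adjusted p = 0.019, up to 0.133 without shCHROME replicate c). FN1, a matrix protein abundant in hepatocytes, fell 1.17-fold (limma, adjusted p = 0.0428), a call held in 8 of 16 alternatives. The authors' deposited table did not call FN1. CTGF was at 0.07 (-0.16 to 0.29) and TAGLN, a marker of contractile cells, at -0.01 (-0.21 to 0.19). The E proteins that ID proteins bind gave 0 calls of 2 tested by limma, edgeR and DESeq2 (0 at an unadjusted p under 0.05), with TCF12 at 0.13 (-0.001 to 0.25) and TCF3 at -0.09 (-0.24 to 0.05).

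**Figure D4:**
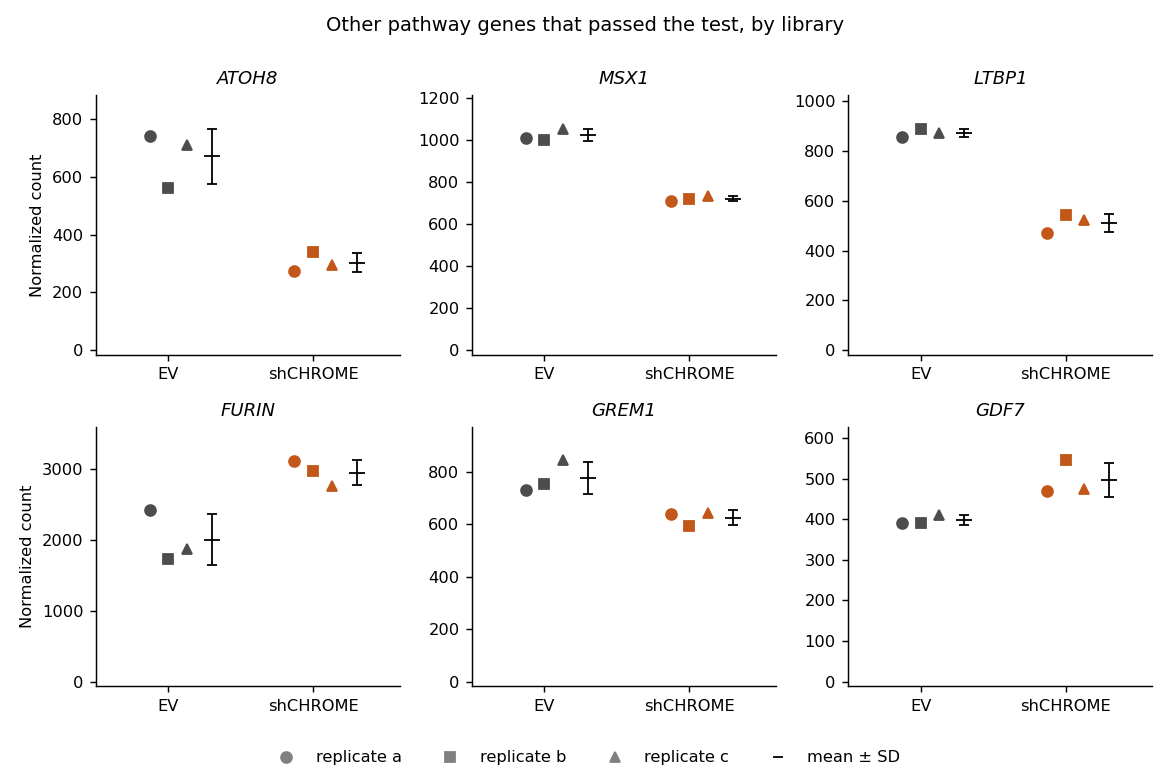
Normalized counts of ATOH8, MSX1, LTBP1, GREM1, FURIN and GDF7 in each EV and shCHROME library, with the group mean ± SD beside the symbols and vertical axes from about 0. The groups are apart in all 6 panels, lower in shCHROME for ATOH8, MSX1, LTBP1 and GREM1 and higher for FURIN and GDF7.

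By the mean absolute difference of centred log2 values over the 6 libraries, among tested genes with a mean of at least 100 normalized counts, the 3 whose pattern was most like that of ID1 were HLA-H at 0.038, MRPL23-AS1 at 0.04 and DPM3 at 0.042. None of them passed the test (limma, adjusted p of 0.0575, 0.158 and 0.175). HLA-H is a pseudogene and MRPL23-AS1 an antisense gene, and both may share reads with other genes.

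Recovered reads per library ran from 29188213 to 35429420. Of 9 hepatocyte markers 6 fell (ALB, AFP, APOA1, TTR, SERPINA1 and TF). APOB (log2 fold change -0.04), HNF4A (-0.03) and FGB (0.16, limma, adjusted p = 0.183) were not called, and FGB went the other way. The 9 markers summed to 1413011 to 1533845 in EV and 1131957 to 1328173 in shCHROME. This sum moved in the direction of ID1 and BMP4, and its part in their values was not tested. In bulk RNA, fewer cells of a type and less RNA per cell cannot be told apart. Of 7 stellate and fibroblast markers 1 fell (PDGFRB), their sum was 1591 to 1800 in EV and 1454 to 1726 in shCHROME, and COL1A1, COL3A1, LUM and DCN had at most 3 reads over the 6 libraries. The 5 endothelial markers summed to 1056 to 1101 in EV and 928.4 to 1007 in shCHROME with TEK at 0. The 7 HEK293T markers summed to 4721 to 4868 and 4270 to 4586, with 1 lower (CDH2) and NEFL, NEFM and VIM at 0. The 5 blood markers summed to 5119 to 5177 and 5587 to 7104, with 1 higher (LYZ) and HBB at 0. The 5 cholangiocyte markers summed to 6992 to 8252 and 7624 to 7982, with 1 higher (KRT19). Few genes made up most of several sums. For the hepatocyte sum they were ALB and APOB, with EV means of 722799 and 466633. In the other sums they had EV means of 1298 (ACTA2, stellate), 1025 (VWF, endothelial) and 4779 (LYZ, blood). For the HEK293T sum they were CDH2 at 3130 and LIN28B at 1544. The sums therefore do not measure how many such cells were present.

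**Figure D5:**
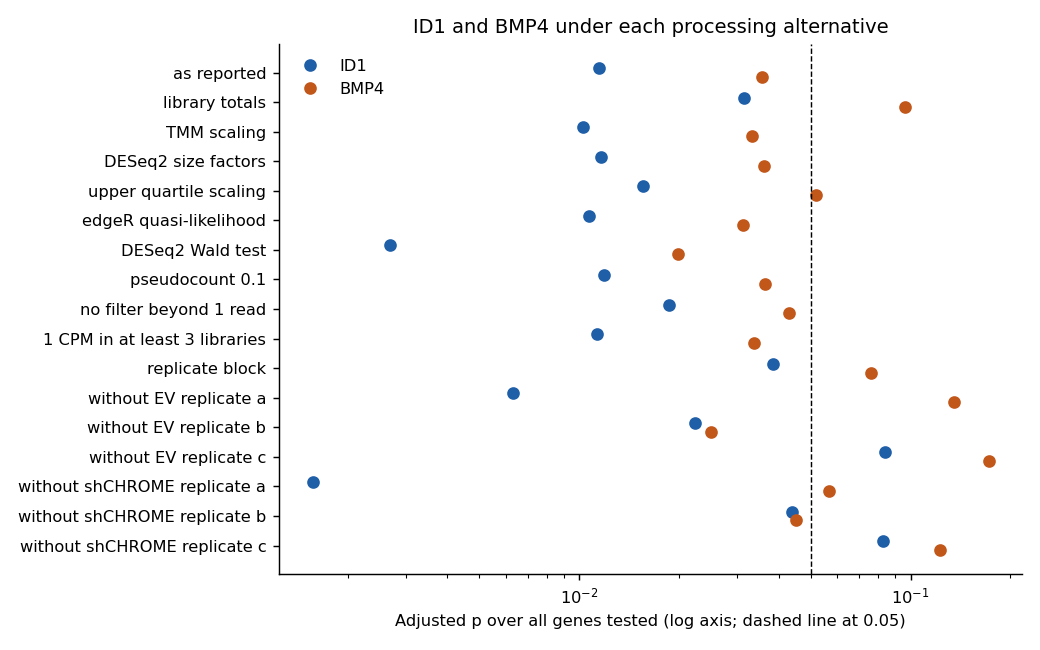
Adjusted p of ID1 (blue) and BMP4 (orange) on a horizontal log axis, as reported and under 16 alternatives, with a dashed line at the threshold of 0.05. ID1 lies to the right of the line without EV replicate c and without shCHROME replicate c, and BMP4 in 7 settings, among them library totals and the replicate block.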

How the data were processed

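Total RNA of 6 HepG2 libraries was made into TruSeq RNA libraries and read from both ends on Illumina, per the labels' protocols. STAR 2.5, featureCounts 1.5.2 and DESeq2 (version given as 3.4) with hg19 are listed in the submitters' processing notes. Strand use and annotation of the counting are not given in the sources used here. The authors deposited a normalized signal per gene and library (read counts divided by a size factor), their log2 fold changes, p-values and adjusted p-values. Repeats (1288 of 24656 rows) were dropped, and 26 gene names turned into dates were recovered. Values were whole multiples of 1 read within 0.01 for 100% of genes, and reads were recovered from these steps (0.914083 to 1.114941). Replicates of a group differed by a chi-square per degree of freedom of 5.72 to 17.04, where counting error alone gives about 1.

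The main test was limma 3.58.1 (R 4.3.3) with a trend on log2(value + 1), group as the only term, genes kept by filterByExpr of edgeR 4.0.16 and Benjamini-Hochberg adjustment over 14598 genes. Fold changes are on that scale, which understates changes of low genes. Alternatives were edgeR and DESeq2 1.42.0 on recovered reads, scaling by TMM, size factors, upper quartile and library totals, a pseudocount of 0.1, other filters, a replicate block and each library left out. This limma analysis was checked on simulated counts with known changes. Their spread was set by a formula and not taken from the replicates. Recovery of changes as small as those of ID1 and BMP4 is not given here. Per-length levels used merged exons of GENCODE release 29. Motifs were searched in the 250 bases before the start only, a limit set after the sequences were seen.

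Members and gene lists were chosen with earlier results of these data known. Named were all members, every called list gene, per list the 2 most abundant tested genes that were not called (where there were as many), and the 3 tested genes with a mean of at least 100 most like ID1. A planned comparison of protein sequences is not reported here. Some genes that this rule or the lists name are not reported here.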

Additional observations from a re-analysis of the deposited data

How the results depend on the processing

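Beside the main counts of 532 genes higher and 1003 lower, library totals gave 936 higher and 702 lower, and the replicate block 349 higher. Leaving out 1 library gave 245 (without shCHROME replicate c) to 528 higher and 599 (without shCHROME replicate c) to 1051 lower. These counts were 297 and 635 when EV replicate a was left out, 323 and 649 when EV replicate c was. Of the members 2 were lower, but 1 under library totals, upper quartile scaling and the replicate block, and 0 to 2 with a library left out (0 where either replicate c was missing). Members called higher stayed at 0 in every alternative. BMP4 had adjusted p (limma) of 0.0964 under library totals, 0.052 under upper quartile scaling, 0.0758 with the replicate block, 0.135 without EV replicate a, 0.172 without EV replicate c, 0.0567 without shCHROME replicate a and 0.123 without shCHROME replicate c. The cause was not tested.

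The values gave no sign that letters a, b and c paired the samples. Deviations of same-lettered libraries correlated at -0.047, -0.091 and 0.044, and not every library correlated best with its own letter. With so few libraries this cannot show that they were handled unpaired. Under the block ID1 stayed lower and GDF7 was lost (adjusted p = 0.0785).

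The sign turned only in genes that did not pass. Under library totals log2 fold changes were 0.00038 for SMAD6, 0.009 for TGFB1, 0.047 for BMP6, 0.013 for BMPR1A, 0.026 for FST, 0.046 for GDF15, 0.01 for INHBE, 0.012 for LTBP3, 0.023 for SMAD5, 0.04 for TAGLN, 0.048 for TGFBR2 and 0.008 for TGFBR3. Upper quartile scaling gave 0.015 for BMP6, 0.013 for GDF15, 0.008 for TAGLN and 0.016 for TGFBR2. GDF15 was at 0.002 in edgeR and 0.004 in DESeq2. With 1 library left out, log2 fold changes ran from -0.12 to 0.04 for SMAD6, from -0.088 to 0.042 for TGFB1, from -0.093 to 0.075 for BMP6, from -0.094 to 0.014 for BMPR1A, from -0.072 to 0.185 for CTGF, from -0.175 to 0.082 for FST, from -0.114 to 0.053 for GDF15, from -0.102 to 0.106 for HAMP, from -0.154 to 0.022 for LTBP3, from -0.006 to 0.146 for RGMB, from -0.055 to 0.022 for SMAD5, from -0.119 to 0.084 for TAGLN, from -0.058 to 0.031 for TGFBR2 and from -0.172 to 0.064 for TGFBR3. The median log2 fold change of all genes was 0.009 in the main fit, 0.058 under library totals and 0.026 under upper quartile scaling. No scaling moved this median by over 0.1, but the median of the tested members was itself only -0.135 in the main fit. Depth limits BMP2 and INHBA most.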

Other observations

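Of the pathway genes, 38 were below the filter on low values, and none of them exceeded the 14.47 normalized counts of NODAL in a library. Among these were the antagonists NOG, CHRDL1, CHRDL2, NBL1, CER1, BMPER, SOST and SOSTDC1 and the receptor genes ACVRL1, BMPR1B, ACVR1C and AMHR2. LTBP4, named after its value was seen, had the lowest log2 fold change of the tested pathway genes after ATOH8, -0.86 from means of 22.63 and 13.78 (limma, adjusted p = 0.206). CYR61, a target of TGF-beta and of other signals, also named after its value was seen, had means of 1361 in EV and 1632 in shCHROME and a log2 fold change of 0.25 (limma, adjusted p = 0.0919). ID4, the fourth ID gene and likewise named afterwards, had means of 264.7 and 311.3 and a log2 fold change of 0.23, of opposite sign to ID1, ID2 and ID3 (limma, adjusted p = 0.2).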
